A study of Homo sapiens with 6 samples.

Results

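Ribosome biogenesis and small nucleolar ribonucleoprotein (snoRNP) genes were examined in HCT116, an established human colorectal cancer cell line, after knockdown of POU2F1. The 40 genes were taken from a fixed list of symbols, with no threshold on their values, and all 40 matched 1 row each among 20474 annotated genes. That list was chosen with earlier results of these data known. All 40 passed the level filter described below, which left 11831 tested genes. By role, 12 are snoRNP core, scaffold or chaperone proteins and 28 are assembly genes, with 13 for the small subunit, 13 for the large subunit and 2 other nucleolar proteins. The sicontrol group (genotype WT in the labels) received a non-targeting siRNA and the siPOU2F1 group an siRNA against POU2F1, the gene of the octamer-binding factor OCT1. RNA from both was taken at 48 h and sequenced as polyA RNA, with 3 libraries per group. Whether the 3 libraries of a group are separate cultures is not stated in the labels. The p-values therefore reflect the spread between these libraries alone, and that spread may be technical. Both groups are transfected cells of 1 line, and no untransfected cells were compared.

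Ribosomes are built in the nucleolus around the transcript of the ribosomal RNA genes. Box C/D and box H/ACA snoRNPs guide the methylation and pseudouridylation of that RNA, and a few also take part in its cleavage. Ordered sets of assembly factors then fold, cut and export the small and large subunit precursors. Many of the genes involved are known targets of MYC and are highly expressed in proliferating cancer cells.

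Expression is given as deposited FPKM, a level scaled to transcript length and to the mapped fragments of the library. Values per library are listed in the order of replicates 1, 2 and 3. Fold changes are siPOU2F1 minus sicontrol on the log2(FPKM + 0.5) scale, which understates changes of low genes. They were tested with limma over all annotated genes whose mean reached 1 FPKM. A gene was called at a Benjamini-Hochberg adjusted p under 0.05 over all tested genes. Between 11670 and 11853 genes per library reached 1 FPKM. POU2F1 measured 4.16, 3.60 and 4.26 FPKM in sicontrol and 1.87, 1.69 and 1.73 FPKM in siPOU2F1 (log2 fold change -0.99, SE 0.14, adjusted p = 0.0333; exact two-sided permutation p = 0.1, the smallest possible with 3 against 3). With any 1 library except siPOU2F1 replicate 3 left out, limma called 0 to 9 of all genes, against 147 with all 6 libraries, so a call lost in those 5 fits says little about a gene. The adjusted p of POU2F1 in them was 0.114 to 0.222, and its log2 fold change lay between -1.06 and -0.95. Of 9 colon epithelial markers, 7 had a mean of at least 1 FPKM, and their summed level was 2705 to 3628 FPKM in sicontrol and 3740 to 5166 FPKM in siPOU2F1; their part in the results was not tested. KRT20 and LGALS4 were at or below 0.231 FPKM in every library. PTPRC, COL3A1 and DCN, markers of leukocytes and fibroblasts, were listed at 0 in all 6. Of 4 fibroblast markers, 1 had a mean of at least 1 FPKM: COL1A1, at 1.55 to 3.58 FPKM across libraries. The 5 leukocyte and 3 endothelial markers had means under 1 FPKM, the highest being LYZ at 0.92. The library siPOU2F1 replicate 3 stood apart from its group. Across genes it correlated at r = 0.946 and 0.948 with siPOU2F1 replicates 1 and 2, but at 0.977 with sicontrol replicate 2. That sicontrol library correlated at 0.980 and 0.972 with sicontrol replicates 1 and 3, and at 0.930 and 0.931 with siPOU2F1 replicates 1 and 2. Results are also given without siPOU2F1 replicate 3 where that matters. The fit without it called 25.3% of all genes tested in it, so a call there is common.

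Most of the 40 genes differed little between the groups. Only NOLC1, a nucleolar scaffold and snoRNP chaperone, was called: it was 2.22 times as high by mean FPKM in siPOU2F1. The 2 subunit assembly genes with the lowest fold changes were the large subunit factor EBNA1BP2 and the small subunit factor WDR43, at log2 values of -1.28 and -0.77. Neither was called (limma, adjusted p = 0.0574 and 0.0833). The box C/D core genes NOP58 and NOP56 were low in 2 of the 3 siPOU2F1 libraries. The count of 1 called among 40 (higher, with 0 lower) stands beside 1.24% of all tested genes called, of which 0.397% were higher and 0.845% lower. At an unadjusted p under 0.05 there were 3 members (7.5%), beside 18.1% of all tested genes. The groups did not overlap for 6 members (15.0%), beside 23.4% of all tested genes. The median log2 fold change was -0.0085 for the 40 members and -0.013 for all tested genes. The member median lay above 0 after quantile normalization (0.0079) and after scaling to the same median (0.0089). In bulk RNA a change per cell and a change in the share of cells that express a gene cannot be told apart.

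**Figure D1:**
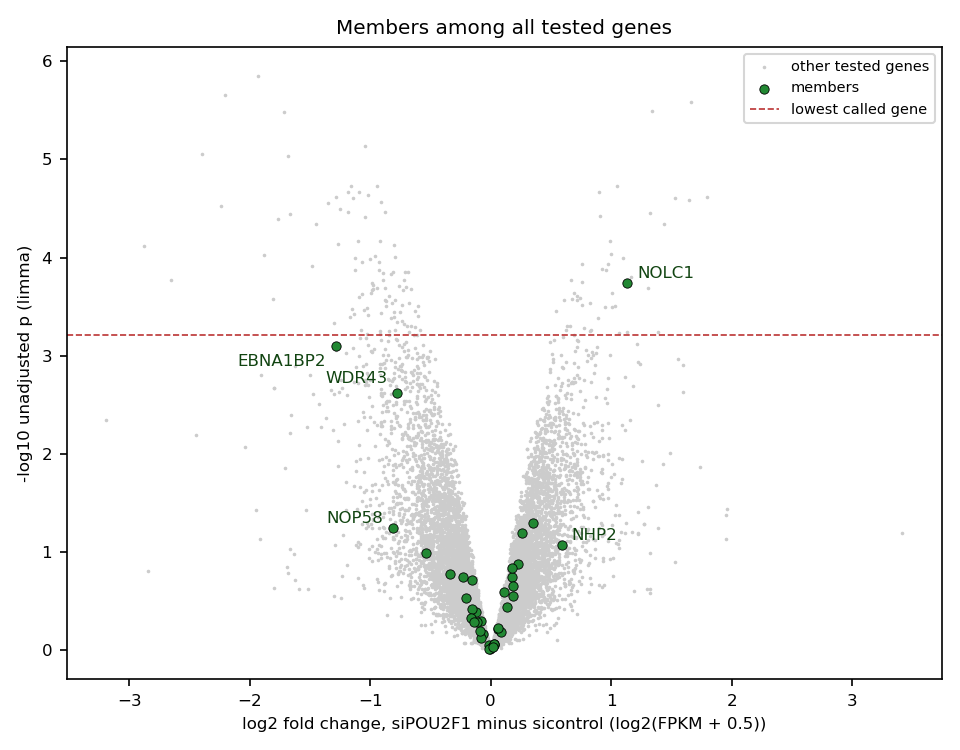
Each point is 1 of the 11831 tested genes, with the log2 fold change (siPOU2F1 minus sicontrol) on the x axis and -log10 of the unadjusted limma p on the y axis. Members are green, and the dashed line marks the called gene with the highest p. NOLC1 is the member above that line, and most members lie near 0.

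The intervals are for single genes and are not adjusted for the number of genes. They reflect the spread between these libraries alone, which may be technical, and so do not bound a change in other cultures. For 34 of the 40 members the 95% interval of the fold change lay inside a 2-fold change in either direction, and for 27 it lay inside 1.5-fold. The interval excluded 0 for 3 members: NOLC1, EBNA1BP2 and WDR43. The absolute log2 fold change was under 0.25 in 31 members, and in 6628 of 11831 tested genes. Of the 40, 19 had a positive and 21 a negative fold change.

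**Figure D2:**
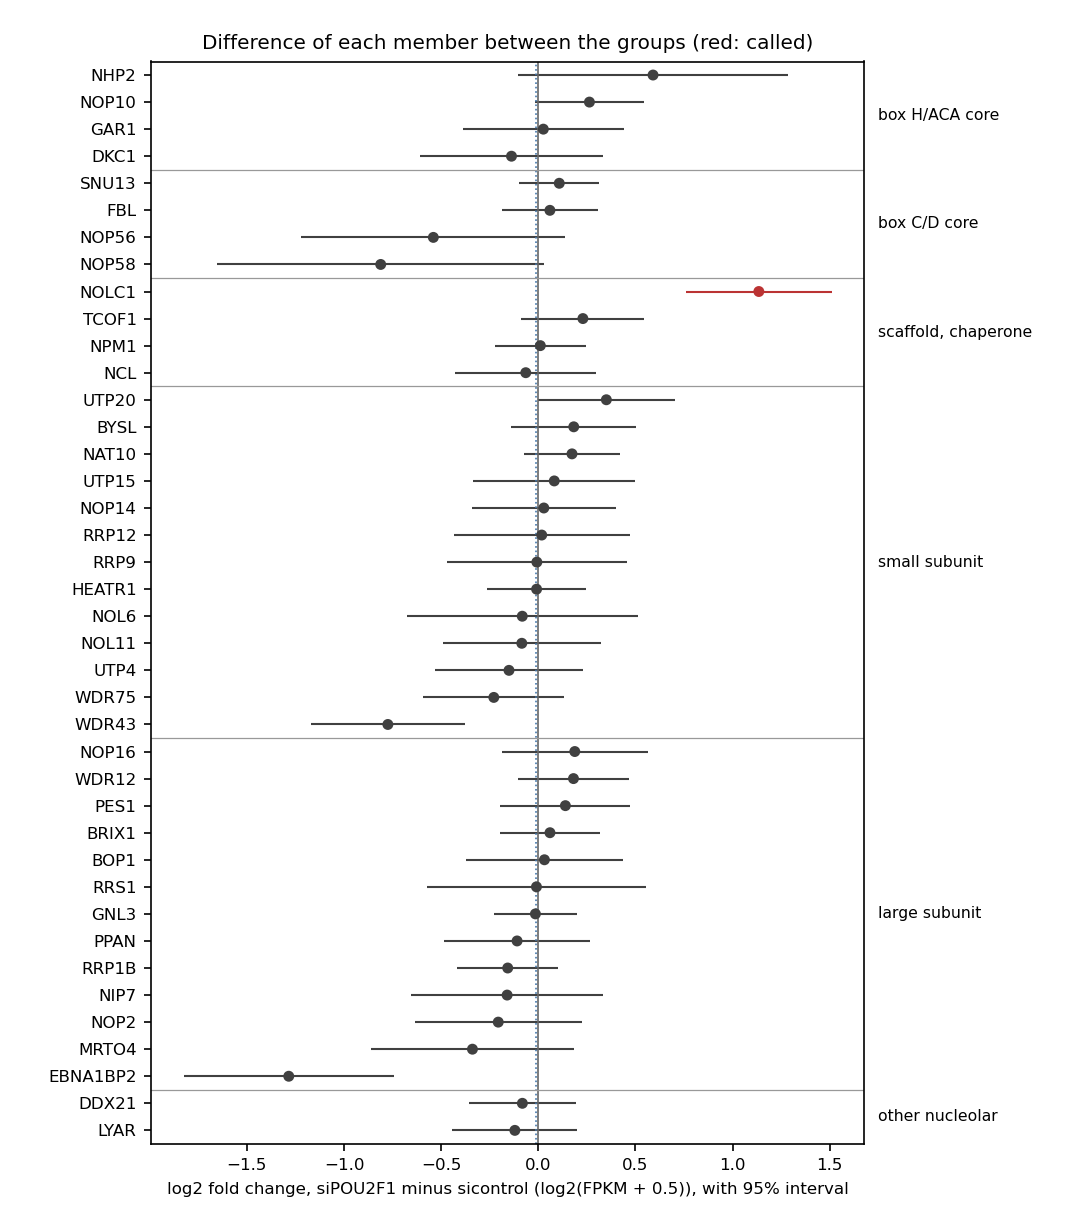
Points are log2 fold changes (siPOU2F1 minus sicontrol, log2(FPKM + 0.5), n = 3 each) of the 40 members grouped by role, and lines are 95% intervals. NOLC1, in red, is the called member, and the dotted line is the median of all tested genes (-0.013).

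Levels per transcript length spanned from 5.06 FPKM in UTP20 to 854 FPKM in NPM1 (means over 6 libraries), with a median of 33.1 FPKM. NPM1, nucleophosmin, and NCL, nucleolin, were the most abundant, followed by FBL, the box C/D methyltransferase. These 3 did not overlap with one another in any library. The lowest members were UTP20, UTP15 and PPAN, whose values overlapped in part. As a share of the FPKM of annotated genes, the 40 members held 0.646%, 0.728% and 0.689% in the sicontrol libraries and 0.663%, 0.623% and 0.7001% in the siPOU2F1 libraries, so these shares overlapped between the groups.

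**Figure D3:**
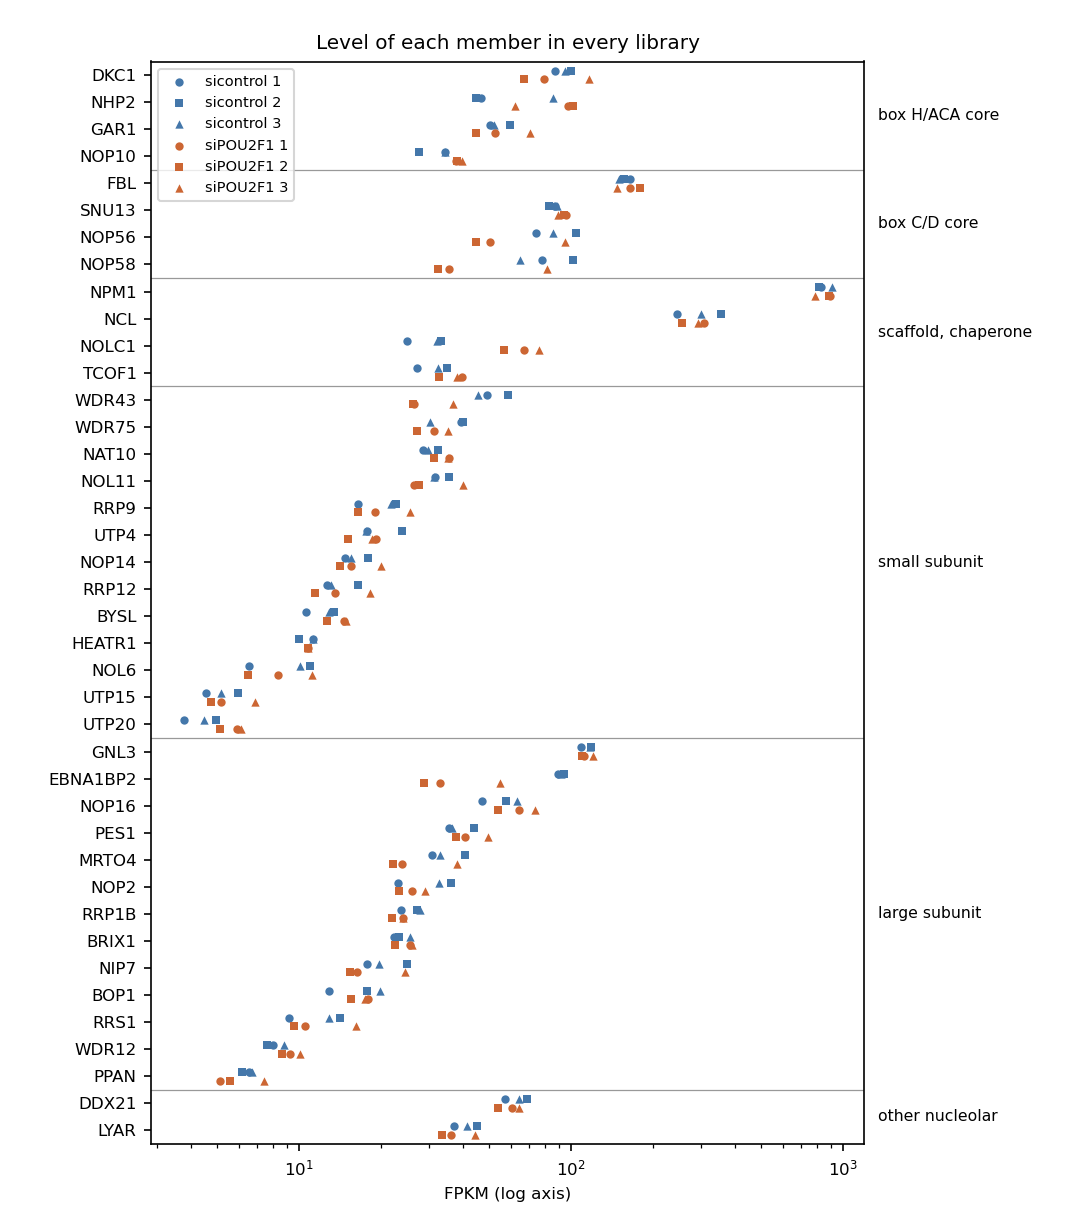
FPKM of each member (log axis) in the 3 sicontrol and 3 siPOU2F1 libraries, grouped by role and ordered by mean level. Symbols of both colours lie together for most genes, while NOLC1 and EBNA1BP2 separate.

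The nucleolar scaffold and chaperone proteins held the called member. NOLC1 (ENSG00000166197; chromosome 10, 102152176 to 102163871, plus strand, GRCh38), also known as Nopp140, is a serine-rich phosphoprotein that binds both classes of snoRNP and links them to coiled bodies. Its sicontrol values were 25.0, 33.1 and 32.2 FPKM. In siPOU2F1 it measured 67.2, 56.6 and 76.4 FPKM. All 3 siPOU2F1 libraries lay above all 3 sicontrol libraries, and siPOU2F1 replicate 3 was the highest. The mean rose from 30.1 ± 4.44 FPKM in sicontrol to a siPOU2F1 mean of 66.7 ± 9.92 (SD, 3 libraries each). On the log2 scale the difference was 1.13, SE 0.16 (limma, adjusted p = 0.0311). Its rank by p was 69 among all tested genes. The call was also made without siPOU2F1 replicate 3 (limma adjusted p = 0.00926), where 25.3% of all genes were called. It was not made in the 5 fits without another library (0.0968 to 0.179), in which 0 to 9 of all genes were called. Its log2 fold change in these 6 fits lay between 1.01 and 1.25.

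TCOF1, or treacle, a relative of NOLC1 in sequence that supports transcription of ribosomal RNA genes, was not called. It measured 27.2, 34.99 and 32.3 FPKM in sicontrol and 39.9, 32.8 and 38.1 FPKM in siPOU2F1 (log2 fold change 0.23, SE 0.13, limma adjusted p = 0.384). The groups overlapped through siPOU2F1 replicate 2. NCL, which binds ribosomal RNA precursors, measured 245, 356 and 301 FPKM in sicontrol and 307, 255 and 292 FPKM in siPOU2F1 (-0.065, 95% interval -0.43 to 0.30). NPM1, a chaperone of ribosomal proteins and a shuttle for pre-ribosomes, measured 829, 816 and 908 FPKM and then 899, 887 and 787 FPKM (0.010, -0.22 to 0.24). The groups overlapped for both genes. The difference between NOLC1 and these 3 genes was not tested. GENCODE lists 45 pseudogenes named after NPM1 and 2 after NCL, so the assignment of their reads is uncertain.

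**Figure D4:**
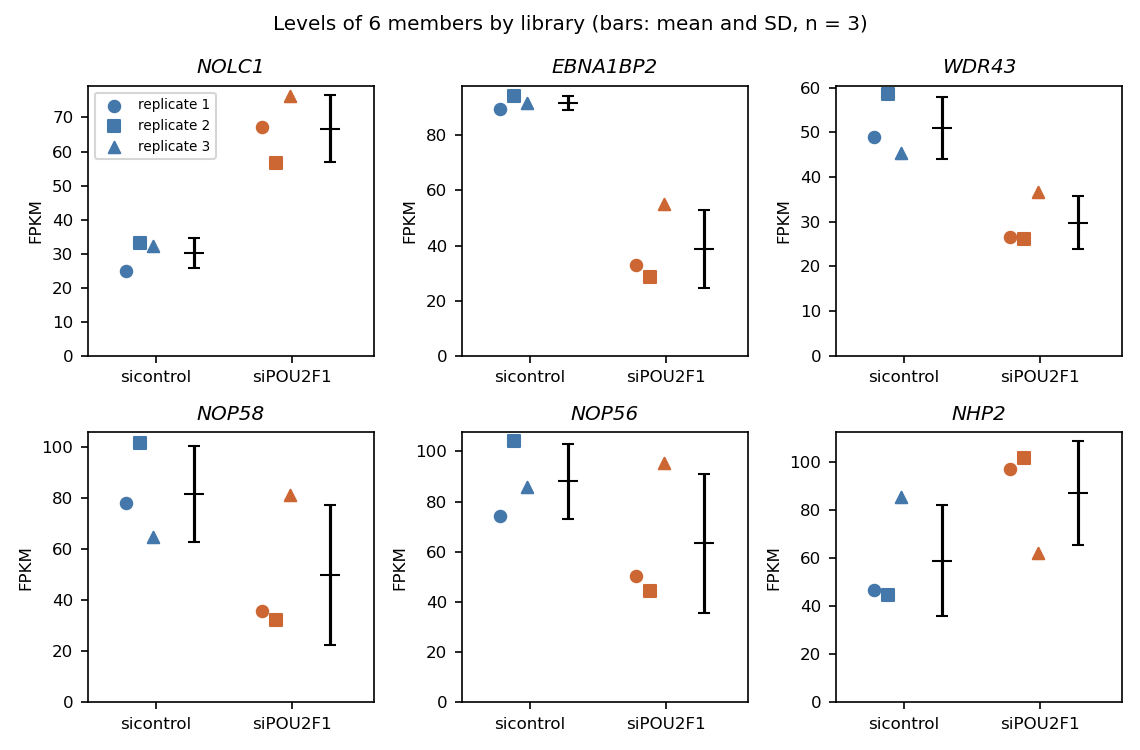
FPKM of 6 members in each library (points, by replicate number) with group mean and SD (n = 3). NOLC1, EBNA1BP2 and WDR43 separate the groups, while siPOU2F1 replicate 3 lies among the sicontrol libraries for NOP56, NOP58 and NHP2.

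The box C/D core is made of 4 proteins: SNU13, which binds the kink-turn formed by boxes C and D, NOP56 and NOP58, a pair of related scaffold proteins, and FBL. None of the 4 was called. NOP58 (chromosome 2, 202265716 to 202303666, plus strand) measured 78.2, 102 and 64.7 FPKM in sicontrol. In siPOU2F1 it measured 35.6, 32.3 and 81.3 FPKM. Replicates 1 and 2 of siPOU2F1 lay below every sicontrol library, and replicate 3 lay within the sicontrol range (log2 fold change -0.81, SE 0.36, limma adjusted p = 0.288). NOP56 (chromosome 20, 2652145 to 2658393, plus strand) had the same layout, with 74.4, 104 and 85.9 FPKM in sicontrol and 50.4, 44.6 and 95.3 FPKM in siPOU2F1 (-0.54, SE 0.29, 0.350). Without siPOU2F1 replicate 3 both were called lower (limma, NOP58 -1.23, adjusted p = 0.00957, and NOP56 -0.87, 0.0130). In that fit 25.3% of all genes were called.

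The other pair of box C/D proteins had small differences. SNU13 measured 87.3, 83.2 and 89.1 FPKM in sicontrol and 96.1, 94.4 and 89.4 FPKM in siPOU2F1. Its groups did not overlap, but by a narrow margin (log2 fold change 0.11, SE 0.087, limma adjusted p = 0.514). FBL measured 164, 156 and 150 FPKM in sicontrol and 165, 179 and 147 FPKM in siPOU2F1 (0.059, 95% interval -0.19 to 0.31). NOP56 has 3 pseudogenes named after it in GENCODE.

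Box H/ACA snoRNPs hold the pseudouridine synthase DKC1 (dyskerin), NOP10, NHP2 and GAR1, and the same proteins bind telomerase RNA. None of these was called. NHP2 measured 46.9, 44.6 and 85.6 FPKM in sicontrol and 97.3, 102 and 62.3 FPKM in siPOU2F1 (log2 fold change 0.59, SE 0.29, limma adjusted p = 0.331). In each group 1 library stood apart: sicontrol replicate 3 was near the high siPOU2F1 values, and siPOU2F1 replicate 3 lay between the low sicontrol values and sicontrol replicate 3. NHP2 shares 27.4% of its exonic bases with RMND5B on the opposite strand (means 16.2 and 13.4 FPKM in sicontrol and siPOU2F1), and the strand setting of the counting was not given in the sources used here. NOP10, the smallest of the 4 proteins, measured 34.5, 27.5 and 34.5 FPKM in sicontrol and 37.8, 38.1 and 39.6 FPKM in siPOU2F1. The groups did not overlap (0.26, SE 0.12, limma adjusted p = 0.301). DKC1 measured 87.2, 100.1 and 95.1 FPKM against 79.5, 67.0 and 117 FPKM (-0.14, SE 0.20, 0.712), with siPOU2F1 libraries both lowest and highest. GAR1 measured 50.5, 59.8 and 52.3 FPKM in sicontrol and 52.3, 44.9 and 70.8 FPKM in siPOU2F1 (0.026, 95% interval -0.39 to 0.44).

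Several of the 40 genes carry snoRNA genes inside their own span. In GENCODE release 29, 8 of the 40 members held at least 1 snoRNA gene on the same strand: NOP56, NOP58, WDR43, DKC1, NCL, GNL3, NOL11 and PPAN. The snoRNAs themselves are not polyadenylated and were not analysed here. Examples from the members with the lowest p among these hosts, and from DKC1, are printed to show what the 2 classes look like. For the box C/D RNAs, capitals mark the letters TGATGA of box C within the first 20 bases and CTGA of box D within the last 20. In the H/ACA RNA the capitals mark the ACA near the 3′ end. All are read 5′ to 3′ from GENCODE (GRCh38, plus strand). SNORD53, SNORD92 and SNORD11 lie in introns, while SNORD57 and SNORA56 overlap an annotated exon of their host.
SNORD53, in WDR43 (chr2:28927067-28927144): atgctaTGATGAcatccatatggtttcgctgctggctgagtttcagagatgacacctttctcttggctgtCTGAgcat
SNORD92, in WDR43 (chr2:28913664-28913748): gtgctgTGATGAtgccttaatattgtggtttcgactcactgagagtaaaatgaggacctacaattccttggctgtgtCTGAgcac
SNORD11, in NOP58 (chr2:202293051-202293134): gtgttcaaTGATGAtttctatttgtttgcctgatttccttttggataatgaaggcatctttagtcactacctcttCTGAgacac
SNORD57, in NOP56 (chr20:2656939-2657010): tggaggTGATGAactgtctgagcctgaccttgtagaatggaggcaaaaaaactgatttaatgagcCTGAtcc
SNORA56, in DKC1 (chrX:154774998-154775126): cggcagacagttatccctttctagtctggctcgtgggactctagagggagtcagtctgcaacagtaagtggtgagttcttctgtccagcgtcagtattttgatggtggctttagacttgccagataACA

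The fold change was negative in all 8 of these host members (median -0.12, range -0.81 to -0.015) and in 13 of the 32 members without a snoRNA gene (median 0.027). None of the 8 was called (limma; WDR43 alone had an unadjusted p under 0.05, at 0.00239). This grouping was made after the values were seen and carries no test. Among the 204 other tested protein-coding genes that hold a snoRNA gene, 89 were negative (43.6%), with a median of 0.053, and 2 were called. Of these, 28 were ribosomal protein genes, with 20 positive and a median of 0.098. The 176 of other families had 95 positive and a median of 0.030. Over all tested protein-coding genes 51.5% were negative, and 147 of 11760 were called. Host genes outside the list were thus more often positive than negative, and the difference was not tested.

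The 13 small subunit factors belong to the processome that forms on the 5′ part of the precursor RNA, and to later steps. WDR43 (chromosome 2, 28894643 to 28948222, plus strand), a subunit of the UTP-A complex that joins early transcription and processing, measured 48.9, 58.6 and 45.4 FPKM in sicontrol. In siPOU2F1 it measured 26.5, 26.1 and 36.7 FPKM. Every siPOU2F1 library lay below every sicontrol library. The means were 51.0 ± 6.85 and 29.8 ± 5.97 FPKM (SD, n = 3 each; log2 fold change -0.77, SE 0.17), but the gene was not called (limma, adjusted p = 0.0833). Without siPOU2F1 replicate 3, where 25.3% of all genes were called, it was called lower (-0.93, limma adjusted p = 0.00795). The same held with library weights (-0.89, 0.000397), which called far more of all genes than the main fit. It was called in no other alternative.

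Other subunits of the same UTP-A complex had fold changes closer to 0. WDR75 measured 39.5, 40.2 and 30.4 FPKM in sicontrol and 31.2, 27.1 and 35.2 FPKM in siPOU2F1 (log2 fold change -0.23, SE 0.15, limma adjusted p = 0.437). UTP4, UTP15, HEATR1 and NOL11 had log2 fold changes of -0.15, 0.082, -0.0092 and -0.085. HEATR1 was the steadiest, between 10.0 and 11.3 FPKM in sicontrol and between 10.7 and 10.8 FPKM in siPOU2F1. HEATR1 shares 23.2% of its exonic bases with LGALS8 on the opposite strand. The difference between WDR43 and these subunits was not tested.

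The next small subunit factors by p had positive fold changes and were not called. UTP20, a very large scaffold protein of the processome, measured 3.76, 4.93 and 4.48 FPKM in sicontrol and 5.92, 5.12 and 6.13 FPKM in siPOU2F1. Its groups did not overlap (log2 fold change 0.35, SE 0.15, limma adjusted p = 0.277). NAT10, the RNA acetyltransferase that modifies 18S ribosomal RNA, measured 28.6, 32.4 and 29.7 FPKM against 35.7, 31.5 and 35.4 FPKM (0.17, SE 0.11, 0.398). The remaining 5, which are RRP9 of the U3 snoRNP, NOP14, NOL6, RRP12 and BYSL, had log2 fold changes from -0.083 to 0.18. Over the 13 the median was -0.0078, with 6 positive, 7 negative and 0 called (limma; 1 at an unadjusted p under 0.05).

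The 13 large subunit factors included the largest difference among members. EBNA1BP2 (ENSG00000117395; chromosome 1, 43164175 to 43270936, minus strand), the human counterpart of yeast Ebp2, acts in early processing of the large subunit precursor. It measured 89.4, 94.4 and 91.6 FPKM in sicontrol and 33.0, 28.7 and 55.0 FPKM in siPOU2F1. The sicontrol libraries lay close together, and each siPOU2F1 library lay far below them. The means were 91.8 ± 2.52 and 38.9 ± 14.1 FPKM (SD, n = 3 each; log2 fold change -1.28, SE 0.23). With an adjusted p of 0.0574 (limma) it was not called with all libraries and values as deposited. It was called lower with a filter at 5 FPKM (0.0456), after quantile normalization (0.0478) and after scaling to the same median (0.0421). The same held without siPOU2F1 replicate 3 (-1.56, 0.00226) and with library weights (0.000148), 2 fits that called far more of all genes than the main fit. It was not called with other pseudocounts, without a filter, as TPM, with a replicate block or with assembled transcripts kept. Nor was it called with any other single library left out, where few genes were called at all. EBNA1BP2 shares 18.8% of its exonic bases with CFAP57 on the opposite strand.

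Most other large subunit factors were near 0. MRTO4, which resembles the stalk protein P0 and is replaced by it during maturation, measured 30.8, 40.8 and 32.9 FPKM in sicontrol and 23.8, 22.2 and 38.1 FPKM in siPOU2F1 (log2 fold change -0.34, SE 0.22, limma adjusted p = 0.424). Its siPOU2F1 replicates 1 and 2 lay below every sicontrol library and replicate 3 did not. Without that replicate MRTO4 was called lower (-0.58, limma adjusted p = 0.0282), in a fit that called 25.3% of all genes. RRP1B measured 23.7, 27.0 and 27.8 FPKM against 24.1, 21.9 and 24.2 FPKM (-0.16, SE 0.11). NOP16 had the highest fold change of this set, with 47.0, 57.9 and 63.4 FPKM in sicontrol and 64.2, 54.0 and 73.6 FPKM in siPOU2F1 (0.19, SE 0.16, adjusted p = 0.528).

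The PeBoW complex, which is needed for processing toward 5.8S and 28S ribosomal RNA, had small positive values in its 3 members. WDR12 measured 8.04, 7.61 and 8.84 FPKM in sicontrol and 9.26, 8.64 and 10.05 FPKM in siPOU2F1 (log2 fold change 0.18, SE 0.12, limma adjusted p = 0.438). PES1 had 0.14 and BOP1 0.031, with 95% intervals from -0.20 to 0.47 and from -0.37 to 0.44. GNL3, or nucleostemin, had -0.015, BRIX1 0.060, RRS1 -0.0099, NIP7 -0.16 and PPAN -0.11. NOP2, the methyltransferase of 28S ribosomal RNA, had -0.21. PPAN shares 56.0% of its exonic bases with the readthrough gene PPAN-P2RY11 on the same strand, and NOP2 shares 54.4% with AC006064.6, so their values are uncertain. Outside both subunit sets, the RNA helicase DDX21 and the zinc finger protein LYAR, had -0.082 and -0.12. The median over the 13 large subunit factors was -0.015, with 5 positive, 8 negative and 0 called (limma; 1 at an unadjusted p under 0.05).

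The snoRNP and scaffold genes were then set against the subunit assembly genes. The 12 former had a median log2 fold change of 0.042, 8 of them positive, and the 28 latter had -0.013, 11 of them positive. Relative to the sicontrol mean, the medians in the siPOU2F1 libraries were 0.079, 0.064 and 0.13 for the snoRNP and scaffold genes. For the assembly genes they were -0.049, -0.24 and 0.20. Over all tested genes they were -0.042, -0.027 and 0.040. In the sicontrol libraries the same medians were -0.10, 0.12 and 0.031 for the former and -0.14, 0.14 and 0.028 for the latter. For the snoRNP and scaffold genes, siPOU2F1 replicate 3 alone lay just above the span of the sicontrol libraries. For the assembly genes, siPOU2F1 replicate 2 lay below that span and replicate 3 above it. The median of the assembly genes was above 0 after quantile normalization (0.0037) and after scaling to the same median (0.0048). The former set spread more than the latter: 7 of 12 had an absolute log2 fold change under 0.25, against 24 of 28 assembly genes. Over all tested genes it was 6628 of 11831, a share near that of the snoRNP and scaffold genes. Within the snoRNP and scaffold set, the medians were 0.14 for the H/ACA core, -0.24 for the C/D core and 0.12 for scaffolds and chaperones, with 4 genes each.

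**Figure D5:**
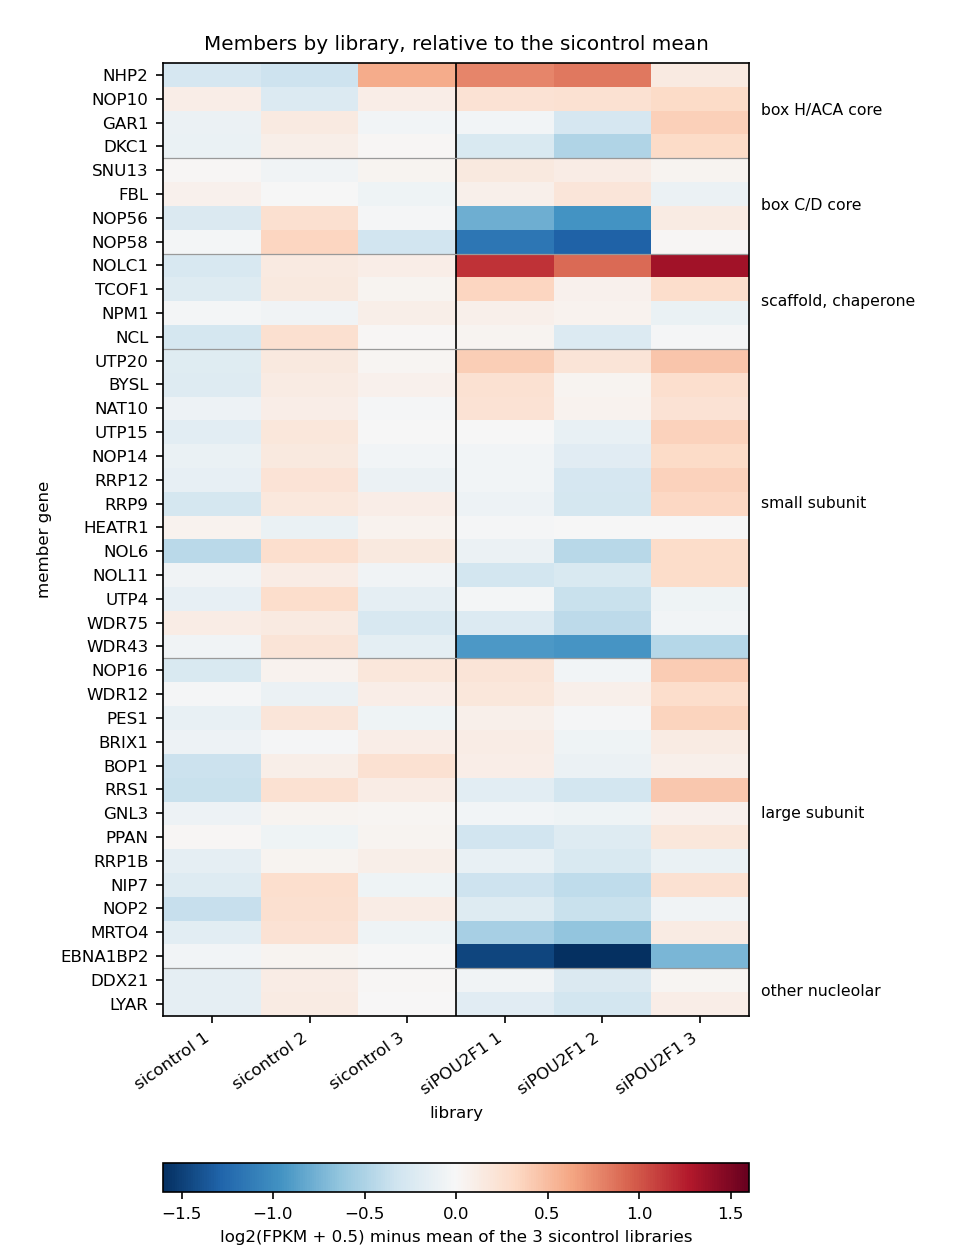
Colour gives log2(FPKM + 0.5) of each member in each library minus the mean of the 3 sicontrol libraries, by role. The column of siPOU2F1 replicate 3 is redder than the other siPOU2F1 columns for most genes, and NOLC1 is red in all 3.

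Across members, single libraries moved together. The library siPOU2F1 replicate 3 was above both other siPOU2F1 libraries in 31 of 40 members and below both in 4 (NHP2, FBL, SNU13 and NPM1). It held the highest of the 6 values in 19 members. The lowest value was in siPOU2F1 replicate 2 for 16 members and in sicontrol replicate 1 for 15. Replicates 1 and 2 of siPOU2F1 lay below every sicontrol library in 10 members: DKC1, NOP56, NOP58, NOL11, WDR43, MRTO4, EBNA1BP2, PPAN, NIP7 and LYAR. In 8 of these, all but WDR43 and EBNA1BP2, siPOU2F1 replicate 3 was at or above the lowest sicontrol library. They lay above every sicontrol library in 6 members (NOP10, NHP2, FBL, SNU13, NOLC1 and UTP20), and replicate 3 joined them in 4. Such counts were not made over all tested genes, and whether they are particular to the members was not tested.

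Without siPOU2F1 replicate 3, 6 of 40 members were called (15.0%), 1 higher (NOLC1) and 5 lower (EBNA1BP2, WDR43, NOP58, NOP56 and MRTO4), beside 25.3% of all genes tested in that fit (limma). The median of the members was then -0.13. The assembly genes had -0.17 and the snoRNP and scaffold genes 0.10 in the same fit. Relative to the sicontrol mean, the medians over all tested genes were -0.042 and -0.027 in siPOU2F1 replicates 1 and 2.

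Promoter sequence was examined because ribosome biogenesis genes are known for E-boxes, the CACGTG element bound by MYC and its relatives. RefSeq windows of 300 bases, mostly upstream of the start and reaching a little past it (GRCh38.p14), were found for 32 of the 40 members. BOP1, RRS1, RRP1B, NOP58, SNU13, RRP12, TCOF1 and the called member NOLC1 had no entry and were not searched. The letters CACGTG (the same on both strands) occurred in 18 of the 32 (56.2%), in 7.26% of all 35116 windows and in 12.7% of 9578 tested genes with a window. The octamer ATGCAAAT, the element that gives OCT1 its name, was searched on both strands and occurred in 0 of the 32 and in 1.77% of all windows. Its absence says only that these letters are not in these windows. Median log2 fold changes were -0.011 in the 18 members with CACGTG and -0.037 in the 14 without. The windows of the 2 assembly genes with the lowest fold changes are printed with CACGTG in capitals. The element starts at base 254 of the WDR43 window and at base 293 of the EBNA1BP2 window. A further RefSeq window of EBNA1BP2, from an upstream start, also holds it.
WDR43 (chr2:28894417-28894716, plus strand): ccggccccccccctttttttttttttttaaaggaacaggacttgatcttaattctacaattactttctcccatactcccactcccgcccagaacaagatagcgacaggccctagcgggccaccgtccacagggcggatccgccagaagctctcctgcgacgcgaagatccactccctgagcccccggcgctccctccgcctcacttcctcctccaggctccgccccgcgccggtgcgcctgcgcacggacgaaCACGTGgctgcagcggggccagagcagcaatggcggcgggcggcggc
EBNA1BP2 (chr1:43172241-43172540, minus strand): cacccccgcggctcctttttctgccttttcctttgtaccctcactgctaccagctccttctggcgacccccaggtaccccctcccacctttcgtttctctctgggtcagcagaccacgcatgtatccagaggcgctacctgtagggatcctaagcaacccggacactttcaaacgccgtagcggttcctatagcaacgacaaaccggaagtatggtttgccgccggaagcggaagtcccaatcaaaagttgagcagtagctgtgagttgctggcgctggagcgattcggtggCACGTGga

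Other genes of ribosome biogenesis, outside the 40, were then counted. Of 114 such genes in 4 lists, 0 were called higher and 2 lower, beside 1.24% of all tested genes called. Their median log2 fold change was -0.043 (47 positive, 67 negative). At an unadjusted limma p under 0.05 there were 15 (13.2%), beside 18.1% of all tested genes. EIF6, which keeps the large subunit from joining the small subunit before it is mature, fell from 181 ± 13.3 to 57.9 ± 15.2 FPKM (SD, n = 3 each). It measured 173, 197 and 174 FPKM in sicontrol and 51.2, 47.2 and 75.2 FPKM in siPOU2F1, with no overlap (log2 fold change -1.67, SE 0.18, limma adjusted p = 0.0150). SHQ1, the chaperone that holds DKC1 before H/ACA assembly, fell from 8.90 ± 1.11 to 4.61 ± 0.0972 FPKM (SD, n = 3 each). It measured 7.77, 8.94 and 10.00 FPKM against 4.72, 4.61 and 4.52 FPKM (-0.87, SE 0.13, adjusted p = 0.0361). In the 5 fits without a library other than siPOU2F1 replicate 3, with 0 to 9 calls among all genes, neither was called (limma adjusted p from 0.0844 to 0.115 for EIF6 and from 0.114 to 0.189 for SHQ1). Their log2 fold changes there were -1.70 to -1.54 and -0.96 to -0.79.

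A further 3 of the 114 had groups that did not overlap and an adjusted p under 0.1, and they are named here after their values were seen. In all, groups did not overlap for 20 of the 114 (17.5%), beside 23.4% of all tested genes. FTSJ3, a methyltransferase of large subunit precursors, had 14.8, 18.6 and 16.8 FPKM in sicontrol and 5.25, 5.54 and 10.6 FPKM in siPOU2F1 (log2 fold change -1.24, SE 0.26, limma adjusted p = 0.0783). SDAD1 had 20.1, 23.7 and 19.0 FPKM against 6.82, 5.97 and 13.3 FPKM (-1.30, SE 0.28, 0.0846). ZNHIT6, a box C/D snoRNP assembly factor, had 8.08, 8.29 and 7.62 FPKM against 4.88, 4.23 and 5.22 FPKM (-0.69, SE 0.13, 0.0613). In all 3 every siPOU2F1 library was below every sicontrol library, and replicate 3 was the highest of its group.

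By list, snoRNP assembly factors had 7 of 9 negative, a median of -0.11 and SHQ1 as the 1 called gene. At an unadjusted limma p under 0.05 there were 3 of these 9 (33.3%), beside 18.1% of all tested genes. Groups did not overlap for 3 (33.3%), beside 23.4% of all tested genes. Factors of ribosomal RNA gene transcription had 0 of 8 called (limma; 1 at an unadjusted p under 0.05) and a median of -0.17. Its 2 members with the lowest p were subunits of the selectivity factor SL1, TAF1B at -0.33 (adjusted p = 0.267) and TAF1D at 0.39 (0.281). Among 50 other small subunit factors 0 were called (limma; 5 at an unadjusted p under 0.05), with a median of 0.0073. Of these MPHOSPH10, a U3 snoRNP protein, had 0.43 (0.129) and RRP7A -0.66 (0.132), both with groups that did not overlap. Among 47 other large subunit factors EIF6 was the 1 called (limma, with 6 or 12.8% at an unadjusted p under 0.05), and the median was -0.065.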

How the data were processed

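PolyA RNA from 6 HCT116 libraries, 3 sicontrol and 3 siPOU2F1 by their titles, was taken 48 h after transfection and made into directional libraries, per the labels' protocols. For each library the authors deposited FPKM per gene. Tools named in the submitters' processing notes are StringTie 2.1.2, Bowtie2 2.2.5 and HISAT2 2.0.4, with the build hg38 and no roles. Annotation release, filters and strand setting were not given in the sources used here. Absolute depth is unknown. Low values (0.01 to 0.1 FPKM) were searched for a shared ratio to sicontrol replicate 1. The densest window of ratios held 12 of 794 low genes for sicontrol replicate 2, 10 of 794 for sicontrol replicate 3 and 11 of 664 for siPOU2F1 replicate 1. Read as relative depths, these gave 0.930, 0.901 and 0.777. For siPOU2F1 replicates 2 and 3 it held 8 of 735 and 7 of 776, under the cut of 10, and no ratio was taken. Whether such windows arise by chance was not tested, so these depths are uncertain. No pair of libraries held the same values.

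Annotated genes (20474 of 22782 features) with a mean of at least 1 FPKM were fitted as log2(FPKM + 0.5) by limma 3.58.1 (R 4.3.3). The model had 1 term, the group, and a trended variance, and p-values were adjusted by Benjamini and Hochberg's method over the whole table. The fit was tested on simulated data with noise drawn independently for each gene and library. That setting holds no deviations shared across genes, so it does not bear on the pattern of siPOU2F1 replicate 3. Members and lists were chosen with earlier results of these data known, and lists are described by counts and medians, with no set test. Values per library are given for the 12 snoRNP and scaffold genes, and among assembly genes for the 8 with the lowest p and the 2 highest and lowest fold changes. From each other list, called genes or otherwise the 2 with the lowest p are named. Alternatives were pseudocounts of 0.1 and 1, no filter or one at 5 FPKM, 3 scalings, library weights, a replicate block, assembled transcripts kept, and each library left out. Same-numbered libraries of the 2 groups had correlations of deviations of 0.13, -0.54 and -0.51 across genes. The highest values were 0.64, for sicontrol replicate 2 with siPOU2F1 replicate 3, and 0.45, for sicontrol replicate 3 with siPOU2F1 replicate 1. Such correlations cannot show which libraries were handled together, so pairing by number is not known. Positions, overlaps and snoRNA genes came from GENCODE release 29 (GRCh38, 1-based), promoters from RefSeq (GRCh38.p14). Python 3.11.15, pandas 2.3.3, numpy 2.4.6 and matplotlib 3.10.9 were used.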

Additional observations from a re-analysis of the deposited data

How the results depend on the processing

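Leaving out 1 library other than siPOU2F1 replicate 3 gave 0, 5, 9, 0 and 0 calls among all genes (147 with all 6), so the loss of the NOLC1 call in those fits says nothing of its stability. Its log2 fold change in them was 1.01 to 1.25. Members called numbered 1 with all libraries, and 0 without a filter on low values, where NOLC1 had an adjusted p of 0.0549 (limma). They numbered 2 with a filter at 5 FPKM, 2 after quantile normalization and 2 after scaling to the same median, the second being EBNA1BP2, and 10 with library weights, where 5963 of all genes were called. With a replicate block 0 were called among members and 0 among all genes (NOLC1 limma adjusted p = 0.291). Whether libraries of the same number belong together is not known. Leaving out each library gave 0 to 6 members. For the 114 other ribosome biogenesis genes the count of 2 became 1 without a filter, 48 with library weights, 0 with the replicate block and 0 to 26 with a library left out. The 26 of these genes and the 6 members came from the fit without siPOU2F1 replicate 3, which called 25.3% of all genes tested in it. The median of the snoRNP and scaffold genes moved from 0.042 to 0.096 with library weights and ran from 0.042 to 0.10 with a library left out. Signs changed for genes near 0: GAR1 was -0.12 and NCL 0.038 with library weights, and NPM1 was -0.043 after quantile normalization and -0.010 as TPM. With a library left out DKC1 ran from -0.36 to 0.035, GAR1 from -0.15 to 0.17, FBL from -0.0065 to 0.13, NCL from -0.20 to 0.065 and NPM1 from -0.025 to 0.071. The cause was not tested. Medians of members and of assembly genes stayed near 0, and with a library left out they ran from -0.13 to 0.064 and from -0.17 to 0.052. NOLC1, EBNA1BP2 and WDR43 kept their direction in all 16 alternatives. FPKM without read counts gives no depth for a single gene, so precision rests on the 3 libraries per group.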

Other observations

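Words of 7 bases that an earlier search of these data linked to lower expression after siPOU2F1 were looked up in the 3′ UTRs of the members (GENCODE release 29, transcript with the longest coding sequence). AACTGCA was present in 1 of 40 members, RRP1B, and in 12.5% of 11524 tested genes. AGAATGA was present in 5 members (HEATR1, WDR43, NOP14, WDR12 and DDX21) and in 14.9% of tested genes. WDR43 thus held 1 copy of AGAATGA, whereas EBNA1BP2, NOP56, NOP58 and MRTO4 held neither word. The words were chosen from fold changes of the same libraries, so these counts describe the sequences and carry no test.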
